A study of Homo sapiens with 10 samples.

Results

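The AP-1 transcription factor family was followed through heat shock and YTHDC1 knockdown in U2OS cells, a human osteosarcoma line. The 10 members were the rows whose Ensembl identifier maps to FOS, FOSB, FOSL1, FOSL2, JUN, JUNB, JUND, ATF3, MAFF and MAFK, out of 63187 genes in the count table. All 10 passed the filter on low counts and were among the 17290 genes tested. RNA-seq was made from 3 groups of 2 libraries each. In heat-shocked knockdown cells YTHDC1, a nuclear reader of the messenger RNA mark m6A, was depleted with a reagent that some labels call sh and others si. The heat-shocked (heated) control cells and the unheated control cells both carried the control reagent, shCtrl in the titles and siCtrl in the descriptions. The genotype label is shYTHDC1 for the knockdown and WT for both control groups. No temperature, duration or recovery time of the heat treatment is stated in those sources, and the labels list no unheated knockdown group, so an effect of the knockdown without heat was not measured. A further 4 samples, from methylated RNA immunoprecipitation, were not analysed here, so that no value below measures m6A.

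AP-1 is a dimer of basic leucine zipper (bZIP) proteins. FOS proteins cannot pair with themselves and bind DNA mainly as partners of JUN proteins, which can also form dimers among themselves. ATF3 pairs with JUN proteins and is often a repressor, whereas MAFF and MAFK are small MAF proteins that lack an activation domain of their own and serve as partners of the NRF and BACH factors. Several of these genes are immediate early genes, whose messenger RNAs are switched on within minutes by growth factor or stress kinases and decay fast. JUN and FOS proteins are well known in osteosarcoma and in bone-forming cells.

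RefSeq lists a promoter for 8 of the 10 members on GRCh38.p14, and the 250 bases before the start site are shown for the genes that set the contrast of the results. FOS (chr14:75278578-75278827, plus strand), FOSB (chr19:45467746-45467995, plus strand), MAFF (chr22:38201744-38201993, plus strand, the first of its windows) and JUN (chr1:58784048-58784297, minus strand) were higher both with heat and with the knockdown. JUNB (chr19:12791236-12791485, plus strand) alone among the members was lower with the knockdown. Capitals mark matches to the motifs searched, each on both strands and each written from 5′ to 3′.
FOS: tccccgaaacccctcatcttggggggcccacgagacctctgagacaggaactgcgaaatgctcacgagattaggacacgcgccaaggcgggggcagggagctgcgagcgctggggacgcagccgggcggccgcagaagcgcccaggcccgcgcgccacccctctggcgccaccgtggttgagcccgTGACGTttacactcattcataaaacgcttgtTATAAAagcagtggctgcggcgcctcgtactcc
FOSB: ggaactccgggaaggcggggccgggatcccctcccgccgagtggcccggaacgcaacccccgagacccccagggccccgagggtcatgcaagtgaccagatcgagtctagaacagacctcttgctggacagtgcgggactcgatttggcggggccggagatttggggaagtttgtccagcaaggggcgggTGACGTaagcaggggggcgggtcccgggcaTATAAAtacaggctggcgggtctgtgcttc
MAFF: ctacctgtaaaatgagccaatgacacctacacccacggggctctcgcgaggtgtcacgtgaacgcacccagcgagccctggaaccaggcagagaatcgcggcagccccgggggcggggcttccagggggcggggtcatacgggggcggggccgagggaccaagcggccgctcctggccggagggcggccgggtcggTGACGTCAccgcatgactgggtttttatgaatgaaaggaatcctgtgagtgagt
JUN: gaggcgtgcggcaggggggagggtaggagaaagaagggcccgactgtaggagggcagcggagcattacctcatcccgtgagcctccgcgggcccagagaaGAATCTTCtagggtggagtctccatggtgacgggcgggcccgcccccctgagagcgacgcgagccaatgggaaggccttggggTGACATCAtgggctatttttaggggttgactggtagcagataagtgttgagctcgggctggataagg
JUNB: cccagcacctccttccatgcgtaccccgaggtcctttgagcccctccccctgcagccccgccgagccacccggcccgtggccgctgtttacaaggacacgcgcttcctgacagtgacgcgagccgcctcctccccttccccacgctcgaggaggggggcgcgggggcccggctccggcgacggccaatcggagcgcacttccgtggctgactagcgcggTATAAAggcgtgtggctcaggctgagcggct
The motif TGACGT, the core of the cyclic AMP response element, started 64 bases before the start site in FOS, 60 in FOSB and 54 in MAFF, where it was part of the full palindrome TGACGTCA. It was also present in members that fell with heat, 66 bases before the start in FOSL2 and, as the palindrome, 200 bases before it in JUND, whose window held a further core on the other strand at 87 bases. The core was found in 7.1% of 35116 RefSeq promoter windows of this length, and the palindrome, which contains the core, in 1.65%. TATAAA lay 33, 30 and 31 bases before the start in FOS, FOSB and JUNB, against 10.7% of all windows. The JUN window held TGACATCA, the variant AP-1 site through which JUN is known to act on its own gene, 67 bases before the start (2.37% of windows), and GAATCTTC, a match to the heat shock factor pair GAANNTTC (5.78% of windows), 150 bases before it. TGACATCA also lay 123 bases before the start in the first window of ATF3, which is not printed. The other MAFF window, also not printed, held no match to any motif searched. No printed window held TGANTCA, the classical AP-1 site found in 6.57% of windows, nor the outward pair TTCNNGAA (6.62%) or a CArG box (1.16%), the serum response factor motif. Sites farther than 250 bases before the start were not searched. A match describes these letters and is no evidence of binding.

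Libraries held between 13252370 and 15500743 counts, of which 5.09% to 6.12% fell on mitochondrially encoded genes. YTHDC1 itself had 121 and 118 CPM (read counts relative to the TMM-scaled library size) in knockdown libraries, against 268 and 258 CPM in heat-shocked controls, so that 45.4% of the control level remained, and it had 213 and 225 CPM in unheated controls. Of the bone and mesenchymal markers, VIM, COL1A1, SPARC and FN1 stood at 850 CPM or more in every library and RUNX2 at 13.5 to 22.6 CPM, while COL1A2 stood at 0.0717 to 2.25 CPM, ALPL at 1.74 to 3.34 CPM, BGLAP at no more than 1 count and TWIST1 at 0. The sum of the 7 epithelial markers moved with the groups, which need not hold for each gene. It was 963 to 999 CPM in the knockdown, 862 to 888 CPM in heated controls and 728 to 780 CPM in unheated controls. Most of it came from KRT8 (376 to 612 CPM over the 6 libraries) and KRT18 (295 to 397 CPM), with KRT19 at 0.211 CPM or less. The 8 blood markers summed to 5.35 to 7.03 CPM in the knockdown, 19.1 to 23.5 CPM in heated controls and 16 to 16.4 CPM in unheated controls, with CD3E and HBB among those at 0 counts in every library. Of these markers LCP1 ranged from 4.08 to 17 CPM and HBA2 from 0 to 6.31 CPM over the libraries, and PTPRC reached no more than 0.696 CPM. The 4 endothelial markers summed to between 3.3 and 6.05 CPM. The part of these shifts in the results was not tested. In bulk RNA, a lower share of cells that express a gene and less RNA per cell cannot be told apart.

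Heat shock in control cells split the family. FOS, FOSB, MAFF and, by small amounts, JUN and MAFK rose, JUND, FOSL1 and FOSL2 fell, and JUNB and ATF3 did not pass the test. That made 8 of 10 members called at an edgeR adjusted p under 0.05, against 43.9% of all genes tested, with 5 higher (20.6% of all genes) and 3 lower (23.3%). The median log2 fold change was 0.14 over the members and -0.03 over all genes.

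FOS (ENSG00000170345, chromosome 14, 75278828 to 75282230), the prototype immediate early member, had 65.8 and 68.2 CPM in heat-shocked controls, against 5.68 and 5.53 CPM in unheated controls. All heated libraries lay far above the unheated ones (11.9-fold, log2 fold change 3.58 ± 0.09 SE, edgeR adjusted p = 7.44e-20, with 2 libraries a group here and throughout). FOSB (ENSG00000125740, chromosome 19, 45467996 to 45475179), a close paralog, had 63 and 81 counts in heat-shocked controls, against 6 and 6 counts in unheated controls. These few unheated counts make its fold the least precise of the members, 13.7-fold with a log2 fold change of 3.78 ± 0.30 SE (edgeR adjusted p = 2.29e-10). FOSL1 (ENSG00000175592, chromosome 11, 65892049 to 65900545), which encodes FRA1, a FOS protein without the transactivation domain of FOS, went the other way, with 35.4 and 37.3 CPM in heat-shocked controls, against 46 and 46.7 CPM in unheated controls (log2 fold change -0.35 ± 0.08 SE, edgeR adjusted p = 0.000664). FOSL2 (ENSG00000075426, chromosome 2, 28392858 to 28417317), which encodes FRA2, had 225 and 223 CPM in heat-shocked controls, against 251 and 263 CPM in unheated controls, a fall to 87.2% (edgeR adjusted p = 0.000879). Within the FOS family the inducible pair thus rose with heat while the FRA pair fell.

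Among the JUN genes heat shock lowered JUND by more than it raised JUN. JUN (ENSG00000177606, chromosome 1, 58780791 to 58784047), the main partner of FOS, had 231 and 248 CPM in heat-shocked controls, against 186 and 186 CPM in unheated controls (1.29-fold, log2 fold change 0.37 ± 0.05 SE, edgeR adjusted p = 6.58e-07). JUND (ENSG00000130522, chromosome 19, 18279694 to 18281622), usually the steadily expressed member, had 37.6 and 40.2 CPM in heat-shocked controls, against 72.9 and 64.2 CPM in unheated controls. That left 56.8% of the unheated level (log2 fold change -0.82 ± 0.07 SE, edgeR adjusted p = 1.43e-09). JUNB (ENSG00000171223, chromosome 19, 12791486 to 12793315), a weaker activator than JUN that can restrain it, had 74.8 and 77.7 CPM in heat-shocked controls, against 71.8 and 68 CPM in unheated controls. Its libraries did not overlap, but the difference did not pass (log2 fold change 0.13 ± 0.06 SE, edgeR adjusted p = 0.0887). It was called in the fit of only those 2 groups (0.15, adjusted p = 0.0145), and over all 14 alternatives its adjusted p ran from 0.0145 to 0.474.

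ATF3 (ENSG00000162772, chromosome 1, 212565407 to 212620777), a stress-induced ATF protein, had 53.2 and 53.1 CPM in heat-shocked controls, against 57.3 and 54 CPM in unheated controls (log2 fold change -0.07 ± 0.06 SE, edgeR adjusted p = 0.403). The groups did not overlap, but they lay less than 1 CPM apart at their nearest libraries. MAFF (ENSG00000185022, chromosome 22, 38201994 to 38216511), the inducible small MAF, had 63 and 68.5 CPM in heat-shocked controls, against 20.8 and 21.8 CPM in unheated controls. It rose 3.09-fold (log2 fold change 1.63 ± 0.08 SE, edgeR adjusted p = 8.56e-15), the largest change after the FOS and FOSB pair. MAFK (ENSG00000198517, chromosome 7, 1530702 to 1543043), a small MAF with a steadier level, had 122 and 117 CPM in heat-shocked controls, against 103 and 109.8 CPM in unheated controls (log2 fold change 0.16 ± 0.05 SE, edgeR adjusted p = 0.0134). This small rise was not called with library size alone as the scaling (0.09, adjusted p = 0.158), when heated control replicate 1 was left out (0.13, adjusted p = 0.136) or when unheated control replicate 1 was (0.12, adjusted p = 0.221).

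**Figure D1:**
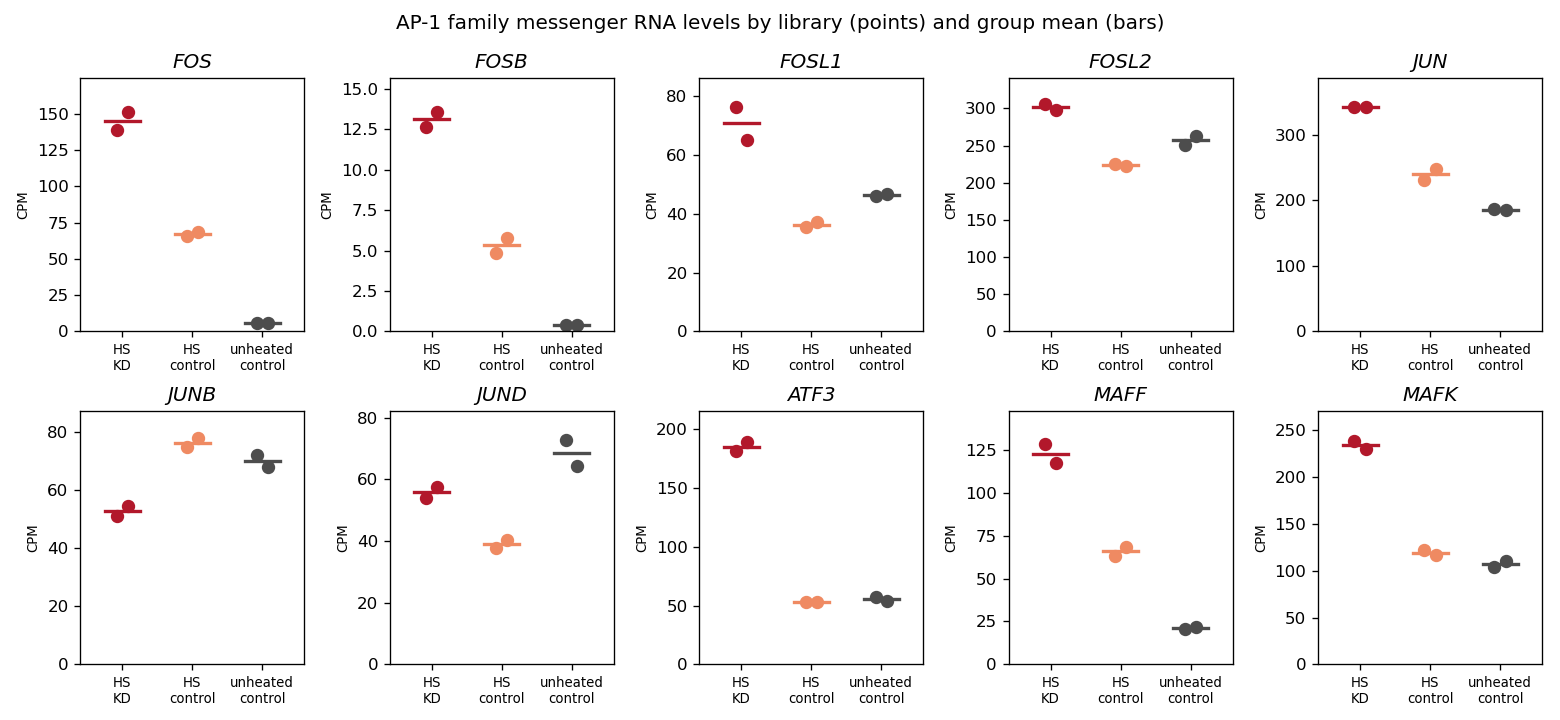
Level of each AP-1 member in every library (points, CPM on a linear axis from 0) with the mean of the 2 libraries (horizontal bars), for heat-shocked YTHDC1 knockdown cells (HS KD), heat-shocked controls (HS control) and unheated controls. FOS, FOSB, JUN and MAFF step up in both comparisons, ATF3 is high in the knockdown libraries alone, and JUNB is lowest there.

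YTHDC1 knockdown in heat-shocked cells raised 9 of the 10 members and lowered JUNB. All 10 were called, against 54.5% of all genes tested, with 9 higher (27.4% of all genes) and 1 lower (27.2%). The median log2 fold change was 0.93 over the members and -0.0042 over all genes. The 10 calls and their directions held under all 14 alternatives run.

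In the FOS family the pair higher with heat was higher still in the knockdown, and the FRA pair, lower with heat, was higher too. Without an unheated knockdown group, a changed heat response and a shift independent of heat cannot be told apart. FOS had 139 and 151 CPM in knockdown libraries, against the 65.8 and 68.2 CPM of heat-shocked controls given above (log2 fold change 1.12 ± 0.06 SE, edgeR adjusted p = 6.15e-14). FOSB had 180 and 195 counts in knockdown libraries, against 63 and 81 counts in heat-shocked controls, and rose 2.45-fold (log2 fold change 1.30 ± 0.15 SE, edgeR adjusted p = 1.28e-07). Knockdown libraries were the highest of all groups for both genes. FOSL1 had 76.2 and 65.3 CPM in the knockdown, against 35.4 and 37.3 CPM in heat-shocked controls, a 1.94-fold rise (edgeR adjusted p = 1.07e-10). FOSL2 rose least of the family, with 305 and 298 CPM in the knockdown, against 225 and 223 CPM in heat-shocked controls (1.34-fold, edgeR adjusted p = 1.96e-08).

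JUN genes did not move as a block. JUN had 343 and 343 CPM in knockdown libraries, against 231 and 248 CPM in heat-shocked controls (log2 fold change 0.52 ± 0.05 SE, edgeR adjusted p = 1.12e-09). JUND had 54 and 57.5 CPM in the knockdown, against 37.6 and 40.2 CPM in heat-shocked controls, with a similar log2 fold change (0.52 ± 0.07 SE, edgeR adjusted p = 2.27e-06). JUNB had 51.2 and 54.3 CPM in the knockdown, against 74.8 and 77.7 CPM in heat-shocked controls. It fell to 69.1% (log2 fold change -0.53 ± 0.06 SE, edgeR adjusted p = 9.25e-08) and was the lowest in the knockdown of all groups.

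ATF3 had the largest rise of the family in the knockdown, although heat alone had left it uncalled. Its level was 181.5 and 189 CPM in knockdown libraries, against 53.2 and 53.1 CPM in heat-shocked controls (log2 fold change 1.80 ± 0.05 SE, edgeR adjusted p = 6.93e-18). MAFF had 128.5 and 117 CPM in the knockdown, against 63 and 68.5 CPM in heat-shocked controls (log2 fold change 0.90 ± 0.06 SE, edgeR adjusted p = 9.4e-12). MAFK had 238.5 and 230.2 CPM in the knockdown, against 122 and 117 CPM in heat-shocked controls (log2 fold change 0.98 ± 0.05 SE, edgeR adjusted p = 5.47e-14).

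**Figure D2:**
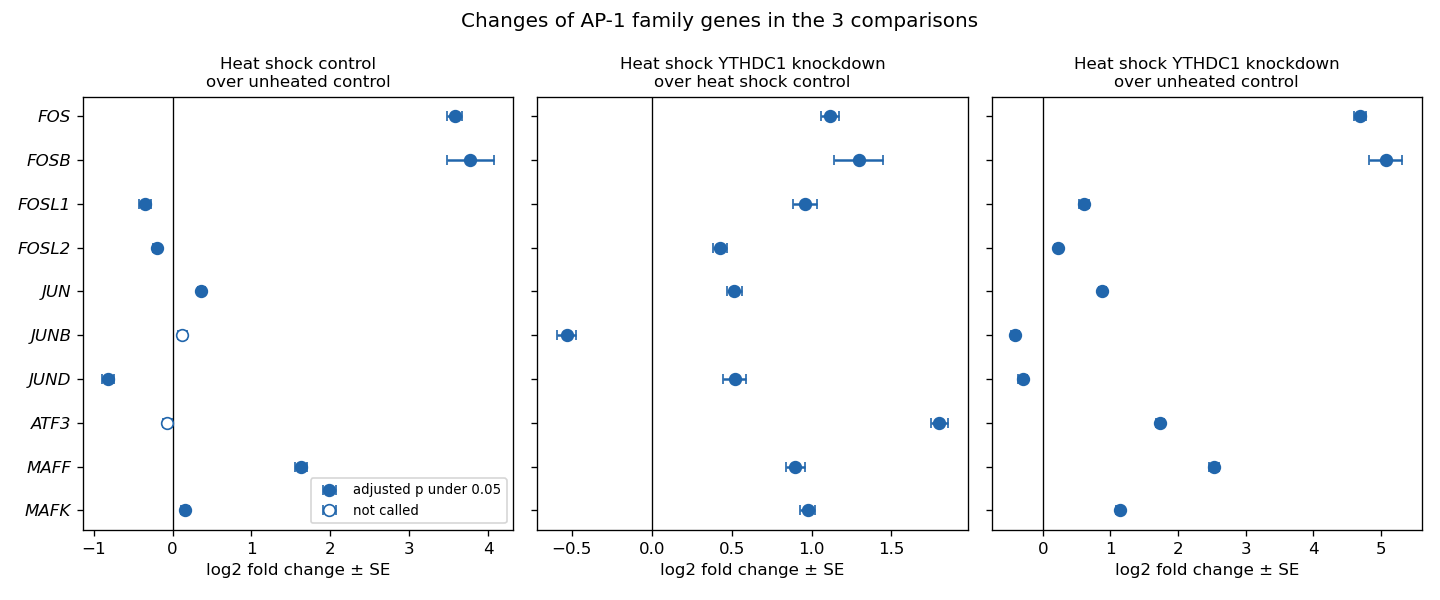
Log2 fold change ± SE of each AP-1 member in each comparison, with the comparison named above each panel and separate scales on the horizontal axes. Filled points passed an edgeR adjusted p of 0.05. JUNB is the only member left of 0 in the knockdown panel (-0.53), and ATF3 is the farthest to the right there (1.80).

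Heat-shocked knockdown cells were also set against unheated controls, a comparison in which heat and knockdown cannot be told apart and which shares its libraries with both comparisons above. All 10 members were called in it, against 62.2% of all genes tested, with 8 higher (31.1% of all genes) and 2 lower (31.1%). FOS stood 25.9-fold higher in the knockdown than in unheated controls (log2 fold change 4.69 ± 0.08 SE, edgeR adjusted p = 4.43e-23) and FOSB 33.6-fold higher (5.07 ± 0.25 SE, adjusted p = 1.38e-14). MAFF was 5.77-fold, ATF3 3.33-fold, MAFK 2.2-fold and JUN 1.84-fold higher. FOSL1 and FOSL2, lower with heat in control cells, stood above the unheated level by 0.61 and 0.23 on the log2 scale (edgeR adjusted p = 5.8e-08 and 8.51e-05). JUND remained at 81.4% of the unheated level (edgeR adjusted p = 0.000499), so that its rise with the knockdown did not bring it back to 72.9 and 64.2 CPM. JUNB was at 75.4% (edgeR adjusted p = 3.35e-06).

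Levels of different members were compared per length, as TPM, the length-scaled counterpart of CPM, from the deposited gene length. JUN led in every group, with 341 and 335 TPM in the knockdown, 225 and 242 TPM in heated controls and 187 and 189 TPM in unheated controls. This lead depends on the length scaling. As CPM, FOSL2 stood above JUN in unheated controls, with 251 and 263 CPM, against 186.4 and 185.5 CPM. FOSB was last in every group, with 8.23 and 8.64 TPM in the knockdown, 3.08 and 3.69 TPM in heated controls and 0.247 and 0.256 TPM in unheated controls. Between these ends the order changed. After JUN came MAFK, ATF3, FOS, FOSL2, FOSL1, JUND, JUNB and MAFF in the knockdown, where ATF3 overlapped FOS and JUND overlapped JUNB. In heat-shocked controls the order after JUN was JUNB, FOSL2, MAFK, FOS, JUND, FOSL1, ATF3 and MAFF, with FOS overlapping JUND and JUND overlapping FOSL1. In unheated controls it was JUNB, FOSL2, JUND, FOSL1, MAFK, ATF3, MAFF and FOS, with JUND overlapping both FOSL2 and, narrowly, JUNB, and FOSL1 overlapping MAFK. By mean level JUNB stood next to JUN in both control groups, though not apart from JUND in unheated controls, and 8th in the knockdown, and FOS, 9th of 10 in unheated controls, was 4th in the knockdown.

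The make-up of each family shifted with these levels. FOS held 33.8% and 37.6% of FOS family TPM in knockdown libraries, 28.8% and 29.1% in heated controls and 2.9% and 2.74% in unheated controls. FOSL2 held 33% ± 0.0607 in the knockdown, 43.2% ± 0.994 in heated controls and 57.6% ± 0.584 (SD, n = 2 each) in unheated controls. By TPM it was the largest part of the family in both control groups, while FOS was the largest in the knockdown, with a mean of 35.7%. As shares of raw counts, which are not scaled for length, FOSL2 held 56.9% in the knockdown, 67.4% in heated controls and 83.1% in unheated controls, so that by counts it led the family in every group. The summed FOS family level was 465 and 446 TPM in the knockdown, 253.5 and 259 TPM in heated controls and 223 and 233 TPM in unheated controls. Between heated and unheated controls the share of FOS differed far more than the sum of the family, whereas the knockdown libraries also had the higher sum. JUN held 62.1% ± 0.974 of JUN family TPM in the knockdown, 51.7% ± 0.426 in heated controls and 41.1% ± 1.44 in unheated controls, while JUNB held 18.9% ± 0.461 in the knockdown, 32.6% ± 0.5 in heated controls and 30.5% ± 0.0168 in unheated controls. The JUN family summed to 543 and 545 TPM in the knockdown, 439 and 465 TPM in heated controls and 466 and 448 TPM in unheated controls. These shares describe messenger RNA, and no test was run on them.

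**Figure D3:**
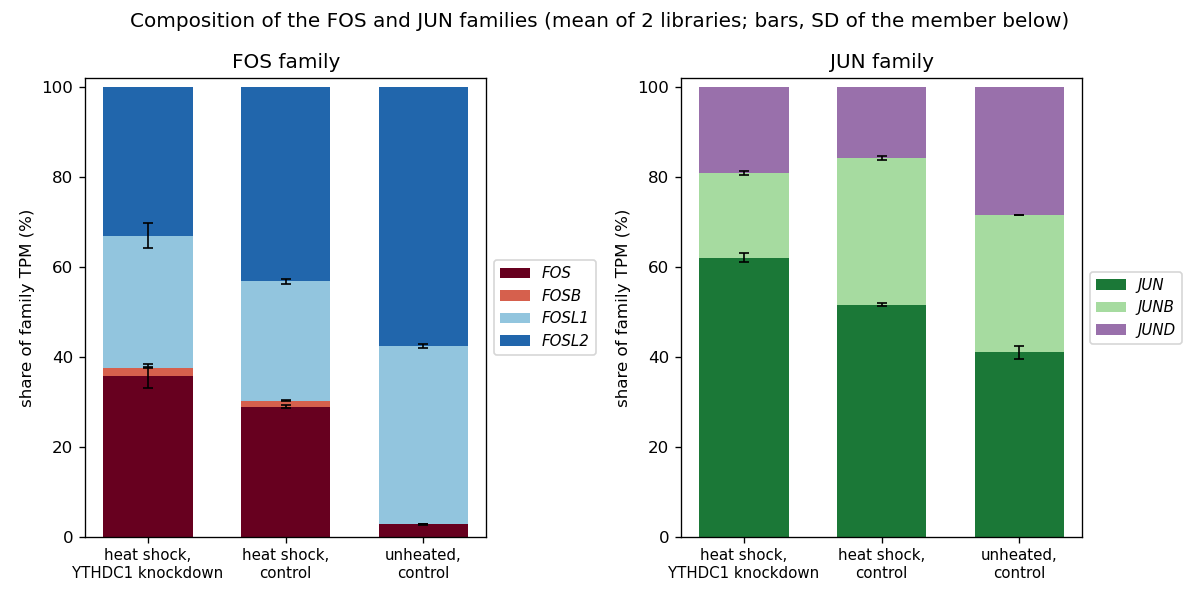
Share of each member in the summed TPM of the FOS family and of the JUN family (stacked bars, mean of 2 libraries, axis from 0), with the SD of each share drawn at the top of its segment except the uppermost. FOS takes a larger share and FOSL2 and FOSL1 smaller ones with heat, and in the knockdown JUN holds 62.1% and JUNB 18.9% of the JUN family.

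Genes with a pattern near that of a member were sought among 10715 protein-coding genes, those with a mean level of 5 CPM or above, by the Euclidean distance between pairs of log2 fold changes (heat shock, and knockdown in heat shock). The nearest to FOS was FOSB, another member, at a distance of 0.27. Next came FZD8, a Wnt receptor, at 0.69 with log2 fold changes of 3.06 with heat and 0.65 with the knockdown. FOS and FOSB thus lay far from the other genes, while the genes nearest to JUN, with its small changes, were much closer. These were RHBDD3 at 0.0085, NEO1 at 0.014 and PRDM11 at 0.024. Those nearest to ATF3 were ADCY9, an adenylate cyclase, at 0.044, VGF, a neuropeptide precursor, at 0.068 and ZNF385A at 0.068, with log2 fold changes of 1.81, 1.85 and 1.74 in the knockdown. The pattern rests on 3 groups, and heat-shocked controls enter both of its values.

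Other bZIP genes that can pair with the members, or resemble them, were also measured. Of 26 tested, 14 rose and 5 fell with heat, with a median log2 fold change of 0.25, and 12 rose and 4 fell with the knockdown, with a median of 0.17. These were 73.1% called with heat, against 43.9% of all genes, and 61.5% with the knockdown, against 54.5%. CEBPG, DDIT3 and CEBPD, which encode C/EBP proteins, rose with heat by 1.28, 1.27 and 1.25 on the log2 scale and did not pass in the knockdown (edgeR adjusted p = 0.81, 0.24 and 0.125). JDP2, a repressor that pairs with JUN proteins, had 26.9 and 27.1 CPM in the knockdown, 50.7 and 51.8 CPM in heated controls and 26.2 and 26.9 CPM in unheated controls. It rose with heat (log2 fold change 0.95 ± 0.07 SE, edgeR adjusted p = 1.29e-10) and fell with the knockdown (-0.92 ± 0.07 SE, adjusted p = 1.81e-10), while the knockdown against unheated controls gave 0.03 ± 0.08 SE (adjusted p = 0.787). BACH2, a repressor that needs a small MAF partner, rose with the knockdown to 22.2 and 19.6 CPM, against 5.77 and 6.88 CPM in heat-shocked controls (log2 fold change 1.72 ± 0.14 SE, edgeR adjusted p = 1.43e-10). CREB5 and ATF1 rose by 0.62 and 0.58 with the knockdown. BATF had no counts in any library.

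Upstream of the family, messenger RNAs of MAP kinase cascades moved both ways. With heat 7 of 32 rose and 15 fell (median log2 fold change -0.13), and with the knockdown 15 rose and 12 fell (median 0.18). That made 68.8% called with heat, against 43.9% of all genes, and 84.4% with the knockdown, against 54.5%. MAPK7, which encodes ERK5, fell with heat to 49.7% (edgeR adjusted p = 1.32e-08), and BRAF rose by 0.76 on the log2 scale. In the knockdown MAP2K6, an activator of p38, had 0.633 and 1.6 CPM, against 8.85 and 8.53 CPM in heat-shocked controls (log2 fold change -2.95 ± 0.25 SE, edgeR adjusted p = 5.69e-10). RPS6KA1, the ERK-activated kinase RSK1, rose by 0.94, and MAP3K20, the ribotoxic stress kinase ZAK, fell by 0.87 on the log2 scale. The DESeq2 Wald test called 5 higher and 8 lower of these genes with heat.

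Serum response factor and its partners act at the promoters of FOS and other immediate early genes. With heat 0 of 6 rose and 2 fell, with a median log2 fold change of -0.0039 (33.3% called, against 43.9% of all genes). ELK3, a ternary complex factor that can repress FOS, fell to 27.3% in the knockdown, with 26.4 and 23.4 CPM, against 95.1 and 87.9 CPM in heat-shocked controls (log2 fold change -1.87 ± 0.07 SE, edgeR adjusted p = 3.65e-16). SRF itself fell by 0.56 on the log2 scale and the cofactor gene MRTFA rose by 0.52 (edgeR adjusted p = 9.27e-08 and 4.34e-08). In all, 3 of the 6 rose and 2 fell in the knockdown (83.3% called, against 54.5% of all genes). The fall of ELK3 with heat (log2 fold change -0.17, edgeR adjusted p = 0.0171) was lost with the DESeq2 Wald test (adjusted p = 0.174), without heated control replicate 2 (0.213) and without unheated control replicate 2 (0.148), and the count with heat was then 1.

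Among 19 genes of messenger RNA decay and JUN protein degradation, 5 rose and 4 fell with heat (median log2 fold change -0.04) and 6 rose and 8 fell with the knockdown (median 0.05). The 47.4% called with heat lies near the 43.9% of all genes, and 73.7% were called in the knockdown, against 54.5% of all genes. ZFP36, which binds AU-rich elements such as that of FOS and speeds decay, had 16.8 and 20.8 CPM in the knockdown, 7.69 and 9.17 CPM in heated controls and 4.1 and 4.43 CPM in unheated controls. It rose with heat by 0.99 ± 0.17 SE and with the knockdown by 1.15 ± 0.14 SE on the log2 scale (edgeR adjusted p = 5.11e-05 and 1.34e-07). Its relative ZFP36L2 fell to 35.8% with heat (edgeR adjusted p = 5.33e-15). The deadenylase genes CNOT6 and CNOT8 fell by 0.89 and 0.60, and KHSRP, another AU-rich element binder, fell by 0.65 on the log2 scale in the knockdown.

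Genes widely described as AP-1 targets did not follow the members in one direction. Of 40 tested, 16 rose and 17 fell with the knockdown, with a median log2 fold change of 0.06, and 7 rose and 14 fell with heat, with a median of -0.04. Those called made up 82.5% of the list in the knockdown, against 54.5% of all genes (27.4% higher and 27.2% lower), and 52.5% with heat, against 43.9% of all genes. AREG, an EGF receptor ligand, had 45 and 45.9 CPM in the knockdown, against 4 and 4.01 CPM in heat-shocked controls (log2 fold change 3.50 ± 0.12 SE, edgeR adjusted p = 9.13e-17). LAMA3, a laminin chain, rose by 3.37 ± 0.29, with 44.2 and 28.2 CPM in knockdown libraries that differed widely, against 3.62 and 3.37 CPM in heat-shocked controls (edgeR adjusted p = 8.84e-05). MMP9, a secreted gelatinase, had 18.9 and 22.3 CPM in the knockdown, against 215 and 232 CPM in heat-shocked controls (log2 fold change -3.44 ± 0.07 SE, edgeR adjusted p = 2.52e-21). The chemokine CXCL8 had 1.41 and 1.6 CPM in the knockdown, against 18.8 and 18.3 CPM in heat-shocked controls (-3.62 ± 0.17 SE, adjusted p = 2.28e-14). With heat F3, the coagulation tissue factor, fell to 32.9% and PHLDA1 to 41%, while GJA1, a gap junction connexin, rose 2.2-fold and PLAU, the urokinase gene, fell to 60.2%.

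Genes bound by NRF2 with small MAF partners did not rise along with MAFF and MAFK as a group. In the knockdown 3 of 19 rose and 8 fell (median log2 fold change -0.15), and with heat 6 rose and 4 fell (median -0.01). The 57.9% called in the knockdown and 52.6% called with heat lie near the 54.5% and 43.9% of all genes. NQO1, a quinone reductase, had 56.6 and 60.7 CPM in the knockdown, against 137 and 135 CPM in heat-shocked controls (log2 fold change -1.21 ± 0.05 SE, edgeR adjusted p = 7.87e-15). TXNRD1, a thioredoxin reductase, fell by 0.77 on the log2 scale, and OSGIN1 rose by 1.08. With heat ME1 rose 2.31-fold, SLC7A11 1.72-fold and HMOX1 1.55-fold, and GCLC fell to 56.6%.

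ATF3 is also a target of ATF4 in the integrated stress response, and 13 other genes of that response were tested. With heat, where ATF3 was not called, 10 rose and 1 fell (84.6% called, against 43.9% of all genes, median log2 fold change 0.91). CHAC1 rose 6.49-fold, ASNS 3.51-fold, PPP1R15A 2.65-fold and DDIT3 2.41-fold. In the knockdown, where ATF3 had its rise, 5 rose and 4 fell (69.2% called, against 54.5% of all genes, median 0.09). PPP1R15A, a phosphatase subunit that helps to end the stress response, rose again by 1.43 ± 0.05 on the log2 scale, with 299 and 313 CPM in the knockdown, against 111 and 116 CPM in heat-shocked controls (edgeR adjusted p = 7.93e-17). CHAC1 and DDIT4 fell by 1.23 and 1.46 on the log2 scale, and NUPR1 rose by 0.99. ATF4, ATF5, CEBPB and DDIT3 of this list are also in the bZIP list.

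**Figure D4:**
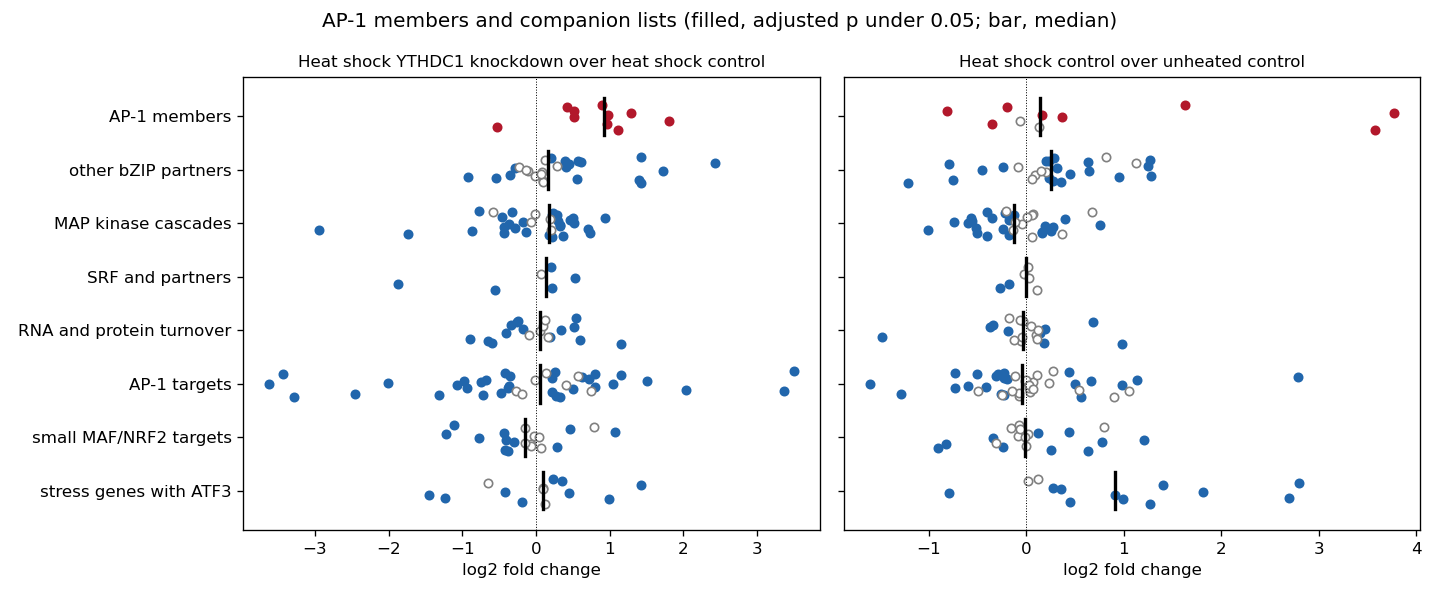
Log2 fold changes of the 10 AP-1 members (top row, red) and of the genes tested in each companion list (blue), for the knockdown comparison on the left and heat shock on the right. Filled points passed an edgeR adjusted p of 0.05, open points did not, and vertical bars are medians. The members' median of 0.93 in the knockdown lies to the right of each list's, from -0.15 to 0.18, while AP-1 targets spread widely to both sides.

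In the RefSeq annotation 4 members overlap another gene, and whether reads were counted by strand is not stated in the sources used here. JUNB overlaps HOOK2, of the opposite strand, which had 26.4 and 25.7 CPM in the knockdown, 22.2 and 22.6 CPM in heated controls and 27.2 and 24.8 CPM in unheated controls. MAFF overlaps at its end with TMEM184B, of the opposite strand, with 133 and 141 CPM in the knockdown, 78.8 and 81.7 CPM in heated controls and 92 and 88.3 CPM in unheated controls. MAFK overlaps TMEM184A, with 30.2 and 27.6 CPM in the knockdown, 13.2 and 17.8 CPM in heated controls and 19.9 and 18.5 CPM in unheated controls, and LOC100128653, which was not matched to the table. FOSL2 overlaps FOSL2-AS1, at 0.189 CPM or less in every library. Like MAFF and MAFK, both TMEM184 genes were higher in the knockdown libraries than in either control group, and the part of shared reads in this was not tested.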

How the data were processed

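RNA-seq of the 6 libraries was used. Per the labels' protocols, RNA came from a TRIzol extraction, the kit was VAHTS Universal V8 and the sequencer a DNBSEQ-T7. The authors deposited a table of raw read counts for each gene, with no scaling. The submitters' processing notes name, without role or order, GRCh38 as the build and featureCounts 2.0.2, MACS2, HISAT2 2.2.1, DESeq2 1.36.0, SAMtools 1.17, R 4.4.0, FastQC 0.11.8 and Trim Galore 0.6.7. Neither annotation nor strand setting is stated in these sources. The table's own Length column, deposited beside the counts, served for TPM alone.

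Symbols were paired with 62666 of 63187 identifiers, and the rest held at most 0.0698% of counts. All 6 libraries entered a single fit with edgeR 4.0.16 (TMM scaling, genes kept by filterByExpr at a minimum count of 10, robust quasi-likelihood test with 3 residual degrees of freedom) in R 4.3.3, with Benjamini-Hochberg adjustment over 17290 genes and 0.05 as threshold. The steps were tested on simulated data. Alternatives used DESeq2 1.42.0, limma 3.58.1 voom, other scalings, no filter, other fits and each library left out. Replicates differed by more than sampling noise (chi-square per gene 1.55 to 3.54), but nothing says that they were separate cultures, so p-values may measure technical spread. Members, lists and tests were chosen with earlier results of these data known. Companion genes were named if among the 4 largest called changes of a list at 5 CPM or more on average, in a comparison, or if at 0; nearest patterns were the 3 closest genes. A few genes that these rules name are not reported here. Promoter sequences are RefSeq's.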

Additional observations from a re-analysis of the deposited data

How the results depend on the processing

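Of 420 recomputed fold changes of members, 416 kept their direction and call, 3 lost a call (MAFK with heat), 1 gained one (JUNB with heat) and 0 changed sign. The number of members called was 7 to 9 with heat, 10 in each other comparison, and no total of all genes called moved by over 1.5 times, though with the DESeq2 Wald test the genes lower with heat numbered 2514, against 4033 (5161 called in all, against 7592). With library size alone 36.5% rather than 46.9% of the genes called with heat were higher (2932 higher and 5092 lower, against 3559 and 4033), and the median gene shifted by -0.07. Without length scaling, as shares of raw counts, FOS held 27.3% of its family in the knockdown, 20.1% in heated controls and 1.81% in unheated controls, and JUN held 76% of its own in the knockdown, 67.5% in heated controls and 57.4% in unheated controls. Without that scaling the share of every FOS and JUN family member moved by more than its SD between libraries in each group, among them FOSL2, given above, and JUNB, with 11.7% rather than 18.9% in the knockdown. The replicate numbers in the titles pair nothing that the labels name, and deviations of same-numbered libraries correlated at 0.0142, -0.0226 and -0.0094 between groups. With the replicate number as a block 8, 10 and 10 members were called with heat, with the knockdown and in the knockdown against unheated controls, and 7494, 9372 and 10684 genes in all. Depth limits FOSB most, with 6 counts in each unheated library.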
